A study of Arabidopsis thaliana with 10 samples.

Results

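The comparison of cool with mild growth in bright light sets the leaves of day 12 against those of day 1 in 2 lines of Arabidopsis thaliana, ecotype Columbia. Its members are 4 of the 10 arrays in the series, chosen by their day and line labels: 2 from day 12 and 2 from day 1, with 1 array per line on each day. The red line carried a 35S:PAP1 transgene, in which a viral promoter active in most tissues drives PAP1, a MYB factor that switches on anthocyanin synthesis. The other line carried the empty vector and served as the control. The label Hex on its arrays was taken to mean the empty vector, the only line besides 35S:PAP1 that the series describes. The regime of each day is absent from the labels and was inferred from the text of the series. Day 1 belongs to growth at 22 °C, days 2 and 7 to a warm dim spell with 30 °C in the light period, and days 8 and 12 to growth at 15 °C. Irradiance was 440 µmol m-2 s-1 on days 1, 8 and 12 and 150 in the dim spell. Day 12 was thus the fifth day of cool bright growth, at the irradiance of day 1, and the plants were also older and had passed through the warm dim spell. Temperature, plant age and that history cannot be told apart here. Each array measured total RNA from pooled frozen leaf tissue, so no array stands for a single plant, and the number of plants per pool and of independent transgenic lines is not given in the sources used here.

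As background, plants that are moved to cool but not freezing temperatures build up freezing tolerance over days, a process called cold acclimation. CBF transcription factors act within hours and switch on the cold-regulated (COR) genes, whose products include dehydrins and chloroplast proteins that protect membranes from dehydration. Over the longer term leaves adjust photosynthesis, starch and sugar metabolism, respiration and antioxidant defences, because light is still absorbed in the cold while carbon fixation and growth slow. Bright light and cold also favour anthocyanin synthesis.

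All levels below are log2 expression values per probe set as deposited, made by the authors with RMA, and in each pair the empty vector value comes before the 35S:PAP1 value. The leaf label fitted the markers: RCA (Rubisco activase), LHCB4.1 and LHCB4.2 (antenna proteins) read 11.9 to 13.7 on the 4 arrays, while the root genes PYK10 and EXPA7 and the seed coat gene BAN read 3.4 to 4.5. PAP1 itself (AT1G56650) has no probe set that names it alone, and so is not analysed here and could not check the labels. The guard cell factor gene FMA read 6.1 and 6.4 on day 1 and 5.5 and 5.9 on day 12, and its change was not called. Across the 4 arrays the median hybridisation control read 8.8 to 9.0, the actin 5′ minus 3′ difference was -1.4 to -1.3 and the array median was 5.6. The 25S rRNA control read 6.7 on the 35S:PAP1 day 1 array and 5.1 to 5.4 on the rest of the 4. It read 9.7 on the 35S:PAP1 day 2 array. The actin difference is lower in degraded RNA and was -2.5 on the 35S:PAP1 day 2 array, and the spiked-in poly-A controls were low on both day 7 arrays (3.40 and 3.35, against 4.45 to 5.35). Those 3 arrays enter the tests below through the estimate of spread.

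Leaves on day 12 carried more transcript of the dehydrin LTI30, the subtilases SBT3.3 and SBT3.5, the sugar transporter SAG29 and the glutathione reductase GR1 than leaves on day 1. They carried less of STOMAGEN, a peptide that promotes stomata, of the repair enzyme MSRB6, the metal transporter ZIP9 and the chloroplast chaperonin subunit Cpn60beta2. These calls were not equally firm. Those of STOMAGEN, SAG29, SBT3.5 and ZIP9 were lost in most of the fits, described below, that each left out 1 array. limma called 637 of 22746 probe sets at an adjusted p of at most 0.05, which is 2.80% of those tested: 340 were higher on day 12 (1.49%) and 297 lower (1.31%). Each of the 637 moved the same way in both lines, and their day 1 and day 12 arrays did not overlap. The test favours such probe sets, because its error measures how unequally the lines moved. Among all 22746 probe sets 11958 moved the same way in both lines. Of all probe sets 42.5% had day 1 and day 12 arrays that did not overlap, so separation of the 4 arrays is not by itself a result. Of the called probe sets 309 name 1 gene, 8 name several and 320 have no entry in the probe table and stay unnamed here, among them changes as large as 4.05 and -3.90. In bulk leaf RNA, fewer cells of a type and less RNA per cell cannot be told apart.

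The test takes the day difference within each line and uses the 2 lines as replicates, so its error measures how unequally the lines moved. Without line as a block the count was 416, of which 401 were among the 637. Leaving out the day 1 array of the empty vector left 13 calls, and leaving out that of 35S:PAP1 left 116. Leaving out a day 12 array left 4 calls (empty vector) or 51 (35S:PAP1). The count was 0 when the 4 arrays of days 1 and 12 were fitted alone (3298 with an unadjusted p under 0.05), where 1 residual degree of freedom remained.

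**Figure D1:**
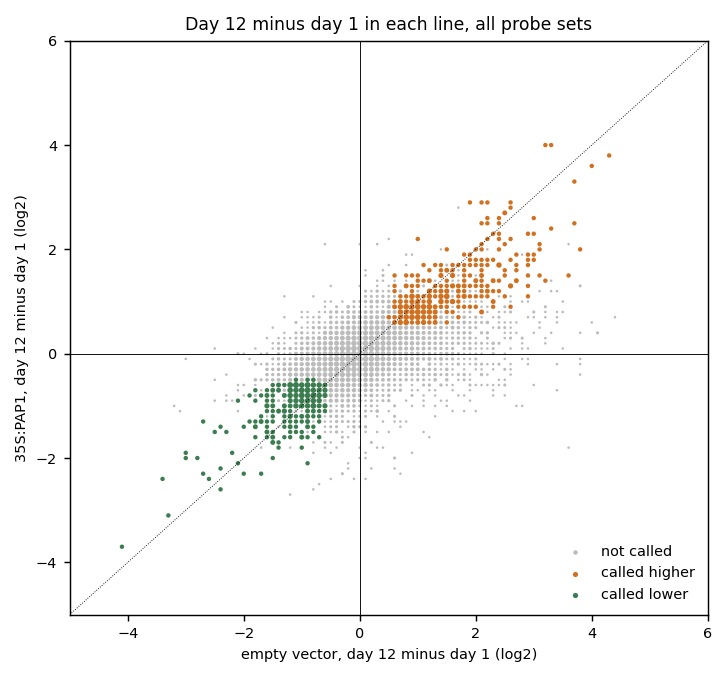
Each point is the day 12 minus day 1 change (log2) of 1 or more probe sets, in the empty vector (x axis) and in 35S:PAP1 (y axis); larger points hold more probe sets, the dotted line marks equal change, and colours mark the 340 probe sets called higher and the 297 called lower. Called points lie in the upper right and lower left quadrants, and grey points spread further along the x axis than along the y axis.

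The empty vector moved more than 35S:PAP1 between the bright days. At least 1 log2 unit separated day 12 from day 1 for 1849 probe sets (8.13%) in the empty vector and for 779 (3.42%) in 35S:PAP1. Over all probe sets the day 12 array correlated with the day 1 array at 0.970 in the empty vector and 0.984 in 35S:PAP1, and with the day 8 array, from the first cool day, at 0.953 and 0.962. With 1 array per line and day, this difference between the lines was not tested.

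Of the cold-regulated genes, the dehydrins LTI30 and COR47 rose. LTI30 (AT3G50970), a dehydrin that binds membranes and is induced by cold and abscisic acid, read 7.1 and 6.9 on day 1 and 10.8 and 10.2 on day 12. Its day 12 arrays lay above its day 1 arrays by more than 3 log2 units in both lines. The rise was 3.5 ± 0.26 (SE, 95% interval 2.9 to 4.1, 11.3-fold, adjusted p = 0.00212). LTI30 had read 10.8 and 10.9 on day 8, so its level was already high on the first cool day, and day 12 minus day 8 was -0.35 (adjusted p = 0.423). COR47 (AT1G20440), an abundant dehydrin, read 9.9 and 9.6 on day 1 and 11.5 and 11.1 on day 12, a rise of 1.55 ± 0.18 (2.93-fold, adjusted p = 0.0105). Unlike LTI30, which read 6.4 to 7.5 in the warm, COR47 was already at 11.3 to 12.3 on the 4 warm dim arrays.

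Of 28 cold-regulated genes listed, 8 had a probe set of their own. Of these 2 were called higher, 0 lower and 6 were not called, while 1.49% of all probe sets were called higher. The median change of the 8 was 1.23 against -0.05 over all probe sets, and 5 of the 8 moved the same way in both lines. AT4G33980 (listed as COR28) and AT1G54410 (listed as HIRD11) were among the 6 not called. COR15A (AT2G42540), a chloroplast protein that stabilises membranes during freezing, read 9.7 and 8.9 on day 1, 13.3 and 13.5 on day 8, and 11.4 and 11.7 on day 12. Its day 12 level lay above day 1 in both lines, by 2.25 with a 95% interval of 1.12 to 3.38, and just missed the threshold (adjusted p = 0.0569). COR15A dropped by 1.85 log2 units from day 8 to day 12 (adjusted p = 0.0337). COR15B, its close paralogue, changed by 1.35 (interval -0.05 to 2.75, adjusted p = 0.284) and LEA4-5, a late embryogenesis abundant protein, by 1.1 (interval 0.04 to 2.16, adjusted p = 0.249). COR27, a cold-induced regulator of the clock and of light responses, read 8.9 and 8.4 on day 1 and 8.4 and 9.1 on day 12, so the lines moved in opposite directions.

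**Figure D2:**
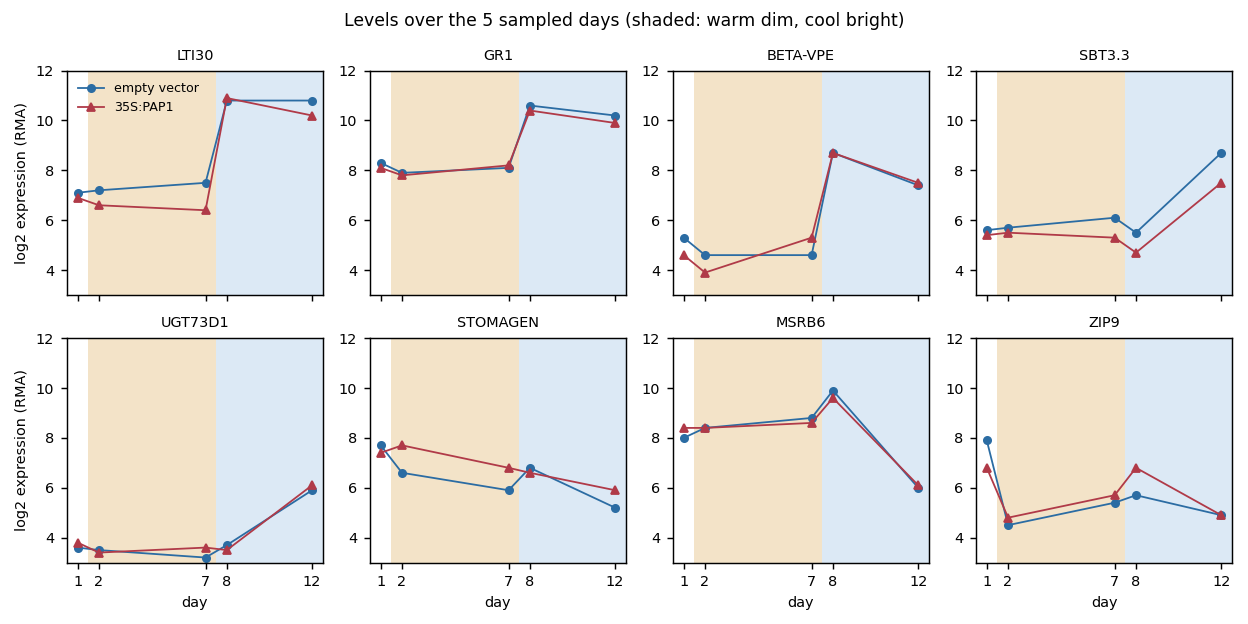
Levels (log2, RMA) of 8 called genes on the 5 sampled days (x axis), with circles for the empty vector and triangles for 35S:PAP1, 1 array per point; the warm dim and the cool bright days are shaded. LTI30, GR1 and BETA-VPE were high on day 8, SBT3.3 and UGT73D1 read 3.5 to 5.5 on day 8 and 5.9 to 8.7 on day 12, and STOMAGEN, MSRB6 and ZIP9 ended below their day 1 levels in both lines.

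The protease genes SBT3.3, SBT3.5 and BETA-VPE and the senescence-associated gene SAG29 were among the 20 largest rises. SBT3.3 (AT1G32960), a secreted subtilisin-like protease linked to immune priming, read 5.6 and 5.4 on day 1, 5.5 and 4.7 on day 8, and 8.7 and 7.5 on day 12. It rose from day 1 by 2.60 ± 0.25 (6.06-fold, adjusted p = 0.00593). The subtilase gene SBT3.5 (AT1G32940), 1 protein-coding gene away from SBT3.3 on chromosome 1 in the RefSeq gene order (assembly TAIR10.1), read 6.7 and 7.2 on day 1 and 9.6 and 8.9 on day 12 (2.3 ± 0.36, adjusted p = 0.0243). Both protease genes stood near or below their day 1 levels on day 8 and rose from day 8 to day 12, by 3.0 (adjusted p = 0.000595) and 2.70 (adjusted p = 0.00243).

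BETA-VPE (AT1G62710), a vacuolar processing enzyme that matures vacuolar proteins, followed another course. It read 5.3 and 4.6 on day 1, 8.7 on both day 8 arrays, and 7.4 and 7.5 on day 12. The rise from day 1 was 2.5 ± 0.32 (5.66-fold, adjusted p = 0.0143), and it dropped by 1.25 log2 units from day 8 to day 12 (adjusted p = 0.0324). SAG29 (AT5G13170), a SWEET sugar transporter named for its expression in senescing leaves, read 4.8 and 5.0 on day 1, 7.3 on both day 8 arrays, and 7.8 and 6.8 on day 12 (2.4 ± 0.39, adjusted p = 0.0275). It was thus high from the first cool day, with a day 12 minus day 8 difference of 0.00 (adjusted p = 1). Of 16 senescence genes listed 3 had a probe set, and SAG29 was the 1 called. The senescence-associated factors WRKY53 and WRKY6 changed by 1.4 (interval 0.28 to 2.52, adjusted p = 0.172) and 0.70 (interval -0.19 to 1.59, adjusted p = 0.394). YLS5, a gene named for yellowing leaves and picked here after its values were seen, rose by 1.0 (adjusted p = 0.0264).

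The remaining rises among the largest 20 with a gene symbol were UGT73D1 and GLR2.8. UGT73D1 (AT3G53150), a UDP-glycosyltransferase, read 3.2 to 3.8 on all 8 arrays of the first 4 sampled days and 5.9 and 6.1 on day 12. It rose by at least 2.3 ± 0.17 (adjusted p = 0.00212), a lower bound because its earlier values lay in the range of EXPA7 and BAN (at most 3.9), which leaves are not expected to express. GLR2.8 (AT2G29110), a glutamate receptor-like channel, read 5.5 and 5.9 on day 1 and 8.4 and 7.2 on day 12, a rise of 2.1 ± 0.37 (adjusted p = 0.0341). A second channel gene of the family, ATGLR1.2, read 3.6 and 3.8 on day 1 and 5.9 and 4.7 on day 12 (at least 1.60, adjusted p = 0.0485), and was picked after its values were seen.

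The other 13 of the 20 largest rises carry locus identifiers without a symbol, and no role is given for them here. AT2G44240 rose most, reading 6.0 and 4.7 on day 1, between 3.1 and 5.5 on days 2 to 8, and 10 and 8.3 on day 12 (3.80 ± 0.44, 13.9-fold, adjusted p = 0.0105). In both lines its lowest levels lay on the warm dim days 2 and 7 and its highest on day 12. AT3G28510 read 3.9 and 3.8 on day 1, 2.8 to 3.3 on days 2 to 8, and 6.5 and 6.6 on day 12, a rise of at least 2.70 ± 0.14 (adjusted p = 0.000677). The locus pair AT4G12490 and AT4G12500, 1 protein-coding gene apart on chromosome 4 in TAIR10.1, rose by 2.45 and 2.60, and AT1G13340, AT1G26390, AT1G78410 and AT4G28460 by 2.4 to 2.55 (at least 2.45 for AT4G28460). The other 5, AT1G65690, AT1G57630, AT3G49340, AT1G33950 and AT5G38900, rose by 2.05 to 2.3 (at least 2.05 for AT1G33950).

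**Figure D3:**
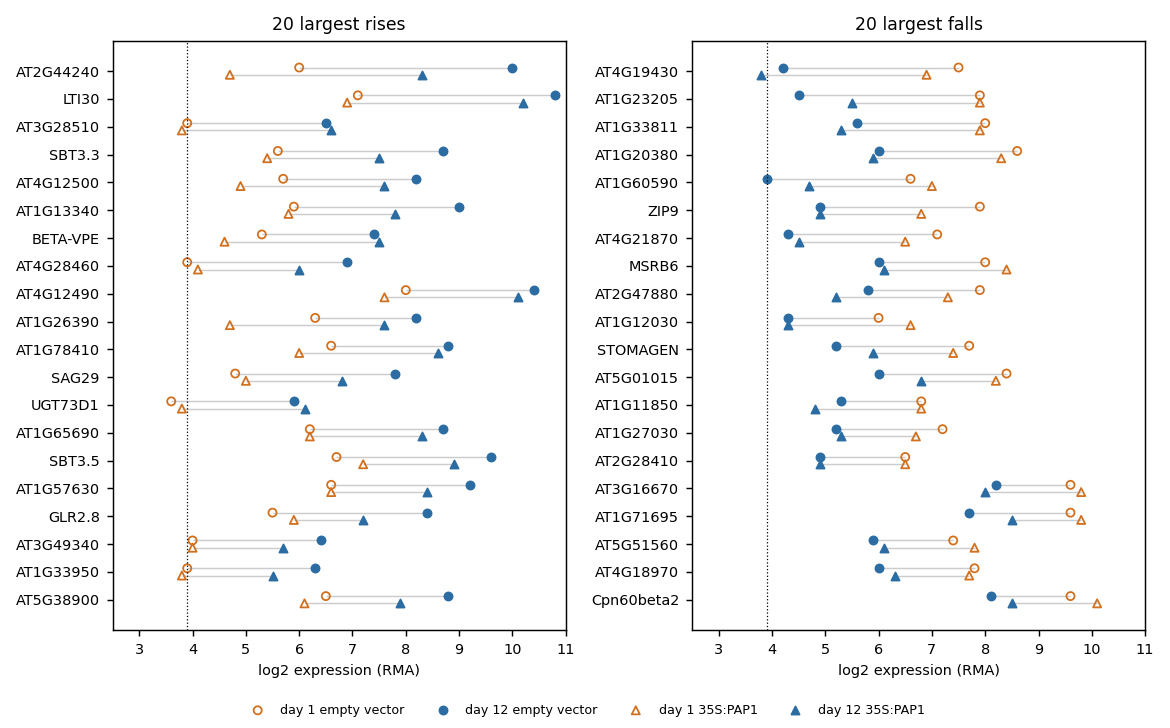
Levels (x axis, log2, RMA) of the 20 genes with the largest called rises (left) and falls (right) on day 1 (open) and day 12 (filled), with circles for the empty vector, triangles for 35S:PAP1 and grey lines joining the days of a line; the dotted line at 3.9 marks the highest level of BAN and EXPA7. In every row both day 12 marks lie on the same side of both day 1 marks.

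Called rises also included GR1, PPDK, NDB2, SDH1-1 and APS4, genes of redox, carbon, respiratory and sulfur metabolism. GR1 (AT3G24170), a glutathione reductase that keeps glutathione in its reduced form, read 8.3 and 8.1 on day 1, 10.6 and 10.4 on day 8, and 10.2 and 9.9 on day 12. Its lines stayed within 0.3 of each other on each of these days, and its rise was 1.85 ± 0.14 (3.61-fold, adjusted p = 0.00212). It was the 1 called of 7 antioxidant genes with a probe set (of 37 listed, median 0.10). The second glutathione reductase gene GR, of plastids and mitochondria, read 9.5 on both day 1 arrays and 9.5 and 9.8 on day 12 (0.15, interval -0.20 to 0.50), and the stromal ascorbate peroxidase gene SAPX changed by 0.45 (interval 0.02 to 0.88, adjusted p = 0.247).

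The metabolic genes that follow were in no list and were picked from the 45 called genes with a symbol after their values were seen. PPDK (AT4G15530), pyruvate orthophosphate dikinase, which makes phosphoenolpyruvate, read 7.9 and 7.8 on day 1 and 9.8 and 9.5 on day 12 (1.80 ± 0.15, 3.48-fold, adjusted p = 0.0036). In between it had read 8.8 and 9.0 on day 7 and 8.7 and 8.6 on day 8. NDB2 (AT4G05020), an alternative NADH dehydrogenase of the mitochondrial inner membrane, read 7.3 and 7.6 on day 1 and 9.4 and 9.1 on day 12 (1.80 ± 0.25, adjusted p = 0.0178). SDH1-1, the flavoprotein subunit of succinate dehydrogenase, rose by 0.90 (adjusted p = 0.0455). APS4, an ATP sulfurylase of sulfate assimilation, read 7.8 on both day 1 arrays and 9.0 on both day 12 arrays (1.2 ± 0.18, adjusted p = 0.0214). Of the autophagy genes ATG8B rose by 1.05 (adjusted p = 0.0288) and APG8A by 0.80 (adjusted p = 0.0468), while their relative ATG8E gave 0.30 (interval -0.46 to 1.06).

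Called rises further included a chitinase, a peroxidase and beta-glucosidases, and the chitinase had been lower in between. CHI (AT2G43570), here a chitinase gene and not chalcone isomerase, read 9.9 and 10.1 on day 1, 7.7 and 7.0 on day 7, 8.8 and 7.7 on day 8, and 12 and 11.5 on day 12. It rose from day 1 by 1.75 ± 0.27 (3.36-fold, adjusted p = 0.0237) and from day 8 by 3.5 (adjusted p = 0.000478). The second chitinase gene with a probe set, ChiC, changed by 1.25 (interval 0.55 to 1.95, adjusted p = 0.0738). Prx37, a class III peroxidase, read 5.4 and 4.9 on day 1 and 6.3 and 5.7 on day 12 (0.85 ± 0.12, adjusted p = 0.0178). It was the 1 called of the 6 such peroxidases matched by family name, and called loci without a symbol may include others. The beta-glucosidase genes BGLU31 and BGLU25 rose by at least 1.80 (adjusted p = 0.0317) and by 1.5 (adjusted p = 0.0105), and the caffeoyl-CoA methyltransferase gene CCOAMT by 1.45 (adjusted p = 0.00903). CCOAMT had read 4.6 and 3.8 on day 8, far below its 6.8 and 6.1 of day 1, before it reached 8.2 and 7.6 on day 12. These 3 genes were picked after their values were seen.

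The jasmonate-induced defensin PDF1.2 (AT5G44420) was not called against day 1, although it had read far lower in between. It read 11.2 and 10 on day 1, 5.7 and 4.6 on day 8, and 11.2 and 11.3 on day 12. The day 12 minus day 1 difference was 0.65 (interval -0.56 to 1.86, adjusted p = 0.586), whereas day 12 exceeded day 8 by 6.10 (adjusted p = 0.000648). The probe set of PDF1.2b may also bind transcripts of close relatives, and it gave 0.40 and 4.65 for the same comparisons. None of the 7 genes used from the jasmonate, defensin and chitinase list (of 29) was called against day 1, with a median of 0.05. The 7 hold no chitinase, and the chitinase gene CHI, called higher above, is not in that list.

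Of the 20 largest falls 4 carry a gene symbol: STOMAGEN, MSRB6, ZIP9 and Cpn60beta2. STOMAGEN (AT4G12970), a mesophyll peptide that promotes the formation of stomata, read 7.7 and 7.4 on day 1, 6.8 and 6.6 on day 8, and 5.2 and 5.9 on day 12. In each line the day 12 array read lowest of the 5. It fell by 2.0 ± 0.35 on the log2 scale (to 0.25 of its day 1 level, adjusted p = 0.0332), a call that was lost in each of the 10 fits that left out 1 array. MSRB6 (AT4G04840), a methionine sulfoxide reductase that repairs oxidised protein, read 8.0 and 8.4 on day 1, 9.9 and 9.6 on day 8, and 6.0 and 6.1 on day 12. It thus passed from its highest to its lowest level within the cool bright days, with a fall of 2.15 ± 0.18 from day 1 (adjusted p = 0.00361) and of 3.70 from day 8 (adjusted p = 0.000143).

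ZIP9 (AT4G33020), a metal transporter of the ZIP family, read 7.9 and 6.8 on day 1, 4.5 and 4.8 on day 2, and 4.9 on both day 12 arrays (-2.45 ± 0.42, adjusted p = 0.0317). Its level was already low in the warm dim spell, but it did not stay low in both lines, reading 5.7 and 6.8 on day 8. In the red line day 8 thus equalled day 1, at 6.8. Neither day 8 minus day 1 (-1.1, adjusted p = 0.138) nor day 12 minus day 8 (-1.35, adjusted p = 0.0617) passed the threshold. Cpn60beta2 (AT3G13470), a subunit of the chaperonin that folds chloroplast proteins, read 9.6 and 10.1 on day 1 and 8.1 and 8.5 on day 12 (-1.55 ± 0.18, adjusted p = 0.0105).

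The other 16 of the 20 largest falls carry no symbol. AT4G19430 fell by at least 3.20 ± 0.15 (9.19-fold, adjusted p = 0.000677). It read 7.5 and 6.9 on day 1, 9.1 to 9.9 on the warm dim arrays, 4.9 and 4.4 on day 8, and 4.2 and 3.8 on day 12, so that its highest levels were in the warm and its lowest in the cool. AT1G23205 read 7.9 on both day 1 arrays and 4.5 and 5.5 on day 12 (-2.9 ± 0.22, adjusted p = 0.00212), and AT1G33811 read 8.0 and 7.9 on day 1 and 5.6 and 5.3 on day 12 (-2.5 ± 0.18, adjusted p = 0.00212). Day 8 already held 4.9 and 5.5 for AT1G23205 and 5.3 on both arrays for AT1G33811, close to the values of day 12. AT1G20380 fell by the same 2.5, with 7.8 and 8.2 on day 8, and so between days 8 and 12 (-2.05, adjusted p = 0.0015). AT3G16670 read 9.6 and 9.8 on day 1, 6.6 and 5.8 on day 7, and 8.2 and 8.0 on day 12, a fall of 1.60 against day 1 but a rise of 1.5 against day 8 (adjusted p = 0.0169 and 0.00355). The remaining 11 (AT1G60590, AT4G21870, AT2G47880, AT1G12030, AT5G01015, AT1G11850, AT1G27030, AT2G28410, AT1G71695, AT5G51560 and AT4G18970) changed by -2.5 to -1.60, and the value of AT1G60590 is a lower bound.

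The 20 largest rises started between 3.6 and 8.0 on the day 1 arrays and reached 5.5 to 10.8 on day 12, whereas the falls started between 6.0 and 10.1 and ended between 3.8 and 8.5. In 13 of the 20 rises the empty vector moved further than 35S:PAP1, and in 11 of the 20 falls it fell further. The comparisons with day 1 and with day 8 share the day 12 arrays, so their values for a gene are not independent.

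Further called falls with a symbol, picked after their values were seen, include proteins of the chloroplast. PGRL1B, which takes part in cyclic electron flow around photosystem I, read 8.2 and 8.1 on day 1 and 7.1 and 7.3 on day 12 (-0.95 ± 0.13, adjusted p = 0.0179), and had read 8.9 to 9.1 in the warm. CYTC6A, a cytochrome c6-like protein of the thylakoid lumen, changed by -1.25 (adjusted p = 0.0179) and RAP, a chloroplast RNA-binding protein, by -0.85 (adjusted p = 0.0282). XERICO, a RING protein linked to abscisic acid, changed by -1.15 (adjusted p = 0.0465), SKU5, a wall glycoprotein of directional growth, by -1.0 (adjusted p = 0.0247), and YAB3, a YABBY factor of leaf polarity, by -0.80 (adjusted p = 0.0356). BHLH101, a factor of the iron deficiency response, read 4.3 on both day 1 arrays and 3.4 and 3.3 on day 12 (at least 0.95 lower, adjusted p = 0.0285).

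The other 9 called genes with a symbol, also picked after their values were seen, changed less or are less well characterised in leaves. SD1-29, a receptor-like kinase of bacterial recognition, rose by 1.45 (adjusted p = 0.0124), cwINV6, of the cell wall invertase family, by 1.05 (adjusted p = 0.0286) and DPL1, a lyase of sphingolipid breakdown, by 0.95 (adjusted p = 0.0264). LPR2, a multicopper oxidase studied in roots short of phosphate, rose by 0.80 (adjusted p = 0.0365) and BRL1, a brassinosteroid receptor, by at least 0.80 (adjusted p = 0.0247). TSO1, a factor of cell division, and NANA, a chloroplast protease, each changed by -0.95 (adjusted p = 0.0315 and 0.0455), scpl50, a carboxypeptidase-like gene, by -0.65 (adjusted p = 0.0385), and PRA1.F1 changed by at least -1.0 (adjusted p = 0.0385).

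Of 23 starch genes listed 4 had a probe set, and DPE1 was the 1 called. DPE1 (AT5G64860), a plastid enzyme that handles maltotriose during starch breakdown, read 8.8 and 8.5 on day 1 and 7.3 and 7.9 on day 12 (-1.05 ± 0.20, adjusted p = 0.0415). APL3, a large subunit of ADP-glucose pyrophosphorylase, which makes the precursor of starch, read 6.4 and 6.5 on day 1 and 8.0 and 7.9 on day 12. Its change of 1.5 (interval 0.72 to 2.28) missed the threshold (adjusted p = 0.0635). The other 2 were lower on day 12 in both lines without passing the test. AT5G26570 (PWD in the gene table), a phosphoglucan dikinase that readies starch granules for breakdown, read 10.1 and 10.2 on day 1 and 9.3 and 9.7 on day 12 (-0.65, interval -0.96 to -0.34, adjusted p = 0.0513). The branching enzyme gene SBE2.2 changed by -0.30 (interval -0.77 to 0.17, adjusted p = 0.496).

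The 9 listed genes of light harvesting, photosystems and carbon fixation that had a probe set were not called, unlike PGRL1B and CYTC6A above, which are in neither list. None of the 3 light harvesting genes used (of 18) was called, and their changes were -0.25 to -0.05. LHCB4.2 read 12.4 and 11.9 on day 1, 9.6 and 9.7 on day 8, and 12 and 12.2 on day 12, so the low level of the first cool day was no longer present. LHCB4.1, LHCB4.2 and LHCB4.3 rose from day 8 to day 12 by 1.05, 2.45 and 1.4 (adjusted p = 0.00168, 0.000595 and 0.0488), in a comparison with 20.2% of all probe sets called and 10.7% called higher. The 6 photosystem and carbon fixation genes used (of 42), which are PSAE-1, PSAN, ATPC1, RCA, PRK and SBPASE, changed by -0.35 to -0.05 with 0 called. Their median in the empty vector was -0.50 and in 35S:PAP1 0.00. For PSAN the 95% interval was -0.77 to 0.07 and for RCA -0.35 to 0.25, so a change of 1 log2 unit lies outside both.

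Genes induced by sugar starvation were not called against day 1 either. The 7 used (of 17) changed by -0.30 to 0.30 with 0 called, although 5 were called higher on day 12 than on day 8, a comparison with 10.7% of all probe sets called higher. AKINBETA1, a subunit of the energy-sensing kinase SnRK1, read 7.3 on both day 1 arrays, 5.1 and 4.9 on day 8, and 7.1 and 6.9 on day 12 (day 12 minus day 1 interval -1.17 to 0.57, day 12 minus day 8 of 2.0, adjusted p = 0.0093). ATG8E read 6.3 and 6.2, then 3.9 and 3.8, then 6.8 and 6.3 on the same days.

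Flavonoid and anthocyanin genes changed differently in the lines, and none of the 8 used (of 27) was called for day 12 minus day 1. The median change was 0.60 in the empty vector and -0.80 in 35S:PAP1. DFR (AT5G42800), dihydroflavonol reductase, read 4.6 on day 1 and 7.1 on day 12 in the empty vector, and 12.4 and 11.6 in 35S:PAP1. UF3GT, an anthocyanin xylosyltransferase, went from 5.3 to 6.6 and from 11.8 to 11.1 in the same order, and AT5MAT, the anthocyanin malonyltransferase, from 3.8 to 4.8 and from 9.5 to 8.8. Thus these 3, and AT4G14090 of the same list (5.3 to 7.2 and 12.1 to 11.5), stood higher on day 12 in the control and lower in 35S:PAP1, which remained far above the control on both days. The combined change of DFR was 0.85 with an interval of -1.36 to 3.06, wide because the lines moved apart. CHIL, an enhancer of flavonoid synthesis, and UGT78D2, a flavonoid 3-O-glucosyltransferase, differed from day 1 by -0.50 (interval -1.95 to 0.95) and -0.30 (interval -1.77 to 1.17).

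Of the flavonol-related members, UGT78D1, a flavonol rhamnosyltransferase, read 7.5 and 7.9 on day 1, 8.9 and 8.8 on day 8, and 6.7 and 7.1 on day 12 (day 12 minus day 1 of -0.80, interval -1.42 to -0.18, adjusted p = 0.164). AT1G06000 read 8.2 and 8.9 on day 1, 11 and 10.8 on day 8, and 7.8 and 7.5 on day 12 (-0.90, interval -1.66 to -0.14, adjusted p = 0.192). The change from day 1 was thus -0.8 in both lines for UGT78D1, and -0.4 in the empty vector and -1.4 in 35S:PAP1 for AT1G06000. From day 8 to day 12 UGT78D1, CHIL and AT1G06000 were called lower, by -1.95, -3.35 and -3.25 (adjusted p = 0.00283, 0.00898 and 0.00101), which makes 3 of the 8 members against 9.44% of all probe sets called lower.

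**Figure D4:**
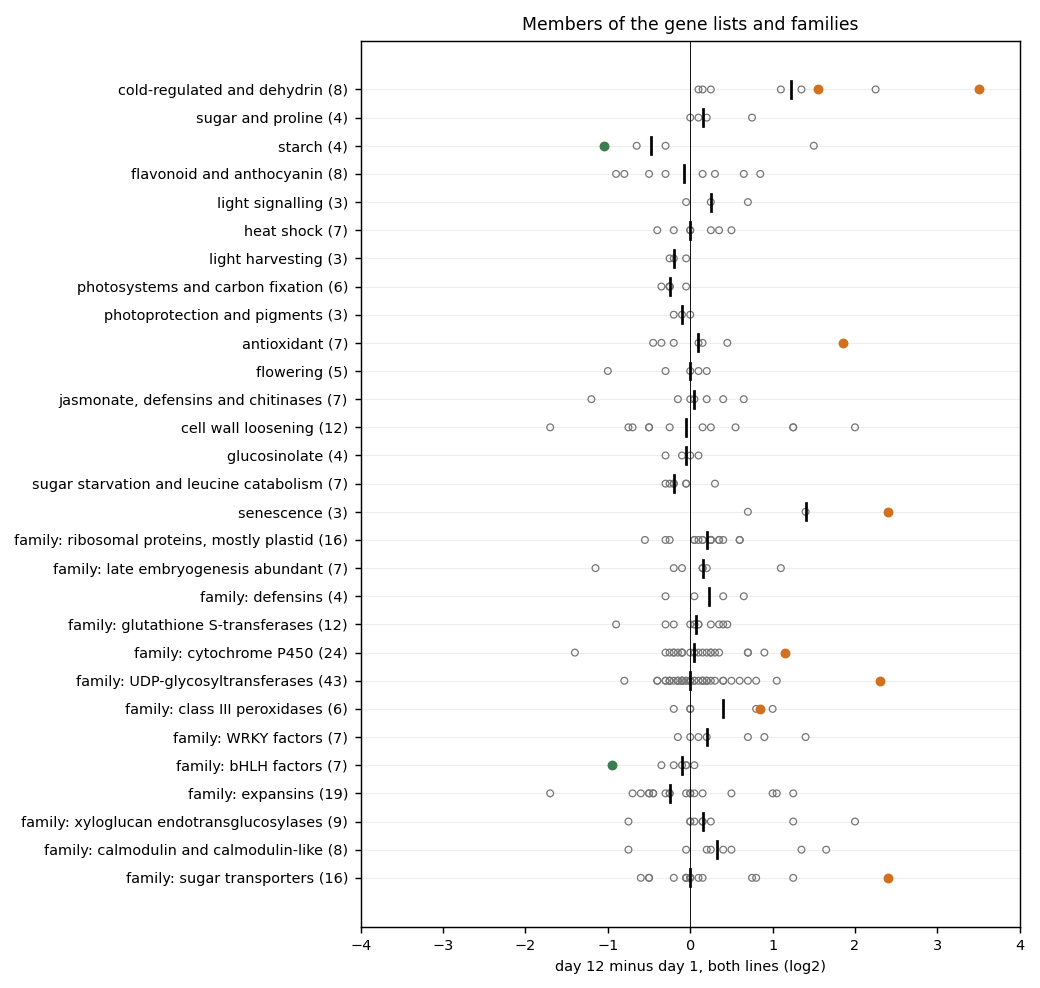
Day 12 minus day 1 change over both lines (x axis, log2) of each gene in lists and families with at least 3 genes (rows, number of genes in parentheses). Marker lists, the plastid genome set and the pentatricopeptide, pectin enzyme, histone and DEAD box families are not drawn. Filled points are called higher (orange) or lower (green), open points are not called, and black bars are medians. The cold-regulated row reaches furthest to the right, with LTI30 at 3.5, and most rows are centred near 0 with 0 or 1 called gene.

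The listed wall loosening genes spread widely without a call, unlike SKU5 and cwINV6 above, which are not in that list. The 12 wall loosening genes used (of 24) changed by -1.70 to 2.0 around a median of -0.05. EXPA8, an expansin, read 8.7 and 7.9 on day 1, 6.0 and 5.2 on day 8, and 6.2 and 7.0 on day 12, a change of -1.70 with an interval of -2.52 to -0.88 that just missed the threshold (adjusted p = 0.0513). XTH18, a xyloglucan endotransglucosylase, read 4.8 and 5.4 on day 1 and 8.2 and 6.0 on day 12, so that the change of 2.0 (interval 0.01 to 3.99, adjusted p = 0.266) rested mainly on the empty vector. The 19 expansins, with 0 called, had a median of -0.25.

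Large families were matched by family name in the reference table's synonyms. Of all probe sets 2.80% were called, so few or 0 calls in sets of this size are no result about the families. Of 43 UDP-glycosyltransferases 1 was called (UGT73D1), and UGT72E2, which glycosylates lignin precursors and lies outside that match, was called too (0.90, adjusted p = 0.0455). Of 24 cytochrome P450 genes CYP71B23 was the 1 called (1.15, adjusted p = 0.0425), and of 16 SWEET sugar transporters SAG29. The 16 ribosomal protein genes, of which 15 lie in the plastid genome, had 0 called and a median of 0.20. The same counts were 0 and 0.08 for the 12 glutathione S-transferases, 0 and 0.33 for the 8 calmodulin-like genes, and 0 and 0.20 for the 7 WRKY factors. The heat shock genes listed (7 used of 26) had 0 called, a median of 0.00 and a range of -0.40 to 0.50. The flowering genes listed (5 used of 25) had 0 called, with AGL24, a flowering-time MADS factor, at -1.0 (interval -1.68 to -0.32, adjusted p = 0.12). The 69 probe sets of the plastid genome, a set chosen after the data were seen that holds those 15, had 0 called, a median of 0.10 and a range of -0.45 to 0.70. Most planned members of each list had no probe set naming them alone. Called loci without a symbol may also belong to a list or family without having been matched to it. These counts therefore do not stand for whole pathways or families.

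The lines parted in 97 genes that changed by at least 0.5 log2 units in opposite directions, 65 of them higher in the empty vector and lower in 35S:PAP1 and 32 the reverse. With 1 array per line and day these differences have no test. The 8 with the largest gap were all higher on day 12 in the empty vector and lower in 35S:PAP1, and in all 8 the day 1 level was higher in 35S:PAP1. AT1G15010 read 7.0 on day 1 and 9.7 on day 12 in the empty vector, and 8.0 and 7.0 in 35S:PAP1. WRKY22, a factor of the immune response, went from 5.0 to 7.4 in the empty vector and from 6.0 to 5.4 in 35S:PAP1, and EXO, a brassinosteroid-responsive growth gene, from 8.6 to 10.4 and from 9.9 to 8.8. DFR, described above, AT2G27080, AT4G29780, AT3G62260 and AT4G27654 make up the rest. Apart from DFR, the 7 genes read higher in the empty vector than in 35S:PAP1 on day 7 as well, for example 11.3 and 8.1 for AT1G15010, and the lines read within 0.8 log2 units of each other on days 2 and 8.

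**Figure D5:**
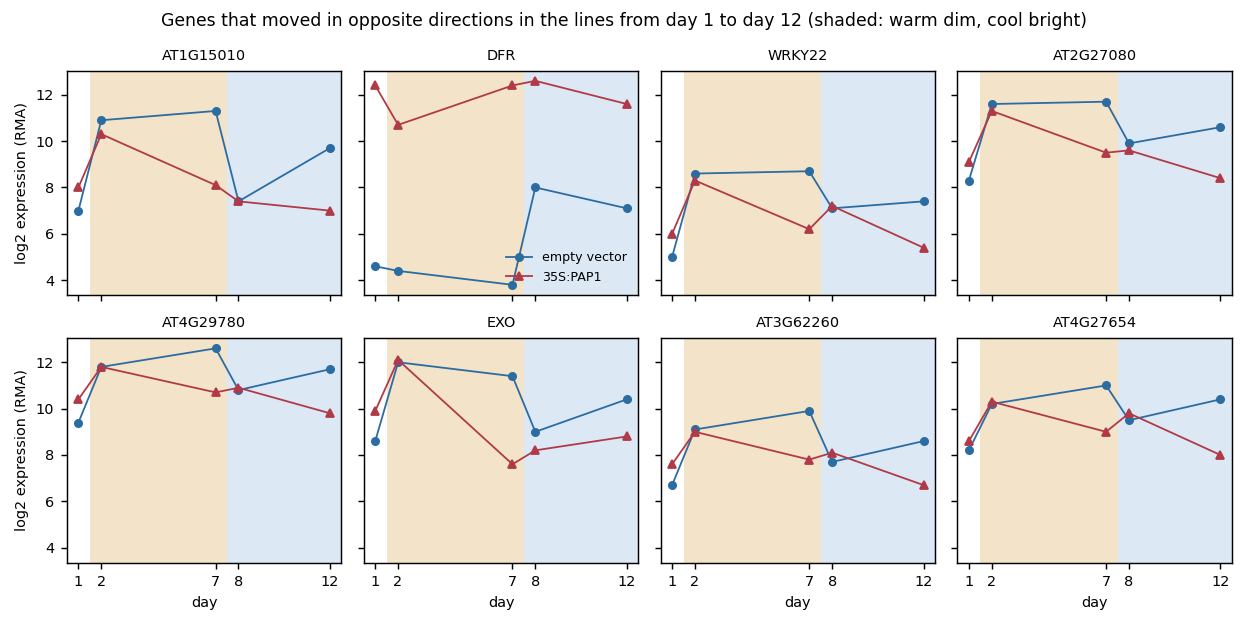
Levels (y axis, log2, RMA) of the 8 genes with the largest opposite changes of the lines, on the 5 sampled days (x axis), with circles for the empty vector and triangles for 35S:PAP1, 1 array per point; the warm dim and the cool bright days are shaded. Except for DFR, the lines lie within 0.8 log2 units of each other on days 2 and 8 and further apart on days 7 and 12, where the empty vector is higher.

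The firmness of single calls varied with the arrays. Leaving out either array of day 2 gives the same day 12 minus day 1 fit, because the array left is matched exactly by its own day term. The same holds for days 7 and 8. The 10 fits counted here are therefore not 10 separate checks. Of the 74 called genes named above, AT3G28510 and AT4G19430 kept their call in all 10 fits that each left out 1 array. LTI30, GR1, PPDK, SBT3.3, UGT73D1, MSRB6, AT1G33811, AT3G49340 and AT4G28460 kept it in 8 of the 10 and AT1G23205 in 9. At the other end, 13 kept it in 0 of the 10: STOMAGEN, DPE1, XERICO, YAB3, RAP, NANA, PRA1.F1, LPR2, APG8A, cwINV6, UGT72E2, scpl50 and AT5G01015. A further 16 kept it in only 1 or 2 of the 10, among them SAG29, SBT3.5, GLR2.8 and SDH1-1, and the remaining 33 in 3 to 7. With the bright days alone or with days 1 and 12 alone, 0 of the 74 kept their call. Leaving out 35S:PAP1 on days 2 and 7 gives the same fit as the bright days alone, so it is no further check. Without line as a block 11 of the 20 largest rises and 18 of the 20 largest falls kept their call, and STOMAGEN, GLR2.8, CHI, DPE1, CCOAMT, Prx37, BGLU31, CYP71B23, YAB3, XERICO and ATGLR1.2 were among those that lost it.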

How the data were processed

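Affymetrix arrays were hybridised with biotin-labelled total RNA of pooled frozen leaves, per the labels' protocols. The authors deposited log2 expression values, 1 per probe set and array, made with RMA, per the submitters' processing notes. The method corrects background, quantile-normalises the arrays and combines the probes of each set, and its version is not given in the sources used here. Values carry 1 decimal and lie between 2.4 and 14.2. Arrays have no read depth, and their number limits the precision. RMA gives no detection call, so a change from or to a level of 3.9 or less, the highest of BAN and EXPA7, is given as a lower bound. No per-sample column was left unused.

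The array holds 22810 probe sets. Its 64 control probe sets entered no test, which leaves 22746. The probe table names 1 gene for 13513 (13436 matched to the RefSeq gene table, assembly TAIR10.1), several for 503 and does not list 8730. limma 3.58.1 in R 4.3.3 (lmFit, eBayes) fitted day and line to all 10 arrays (4 residual degrees of freedom), and p-values were adjusted by Benjamini-Hochberg with a threshold of 0.05. The line pairs the arrays, from the labels. Separate plants are not named in the labels, so p-values reflect only the spread between these arrays, which may be technical. On simulated data for day 12 minus day 1 over 22746 probe sets, 53% of changes of 1 log2 unit, 98% of 2 and 100% of 4 were recovered. False calls numbered 5, 18 and 10 beside the 200 changed probe sets. The simulated noise was independent between arrays and both lines were shifted alike, so recovery where the lines move unequally was not tested. The genes named are the 20 with the largest called rise and the 20 with the largest called fall that name 1 gene and moved the same way in both lines, the 8 with the largest opposite changes of the lines, and members of 37 gene lists and 31 families. Other called genes with a symbol were picked after their values were seen. The comparison, the lists and the families were chosen with earlier results of these data known. Alternatives were line not as a block, other sets of arrays, median centring, a second quantile normalization, a filter on dim probe sets, an intensity trend and a fold limit. No promoter or protein sequence was used here.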

Additional observations from a re-analysis of the deposited data

Results flagged for a closer look

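The results below stand out because the 2 lines moved in opposite directions from day 1 to day 12. With 1 array per line and day the difference was not tested. The value given is the 35S:PAP1 change minus the empty vector change, in log2 units. It was -3.7 for AT1G15010, -3.3 for DFR, -3.0 for both WRKY22 and AT2G27080, -2.9 for both AT4G29780 and EXO, and -2.8 for both AT3G62260 and AT4G27654. These 8 were selected for the size of the gap. Of the other anthocyanin genes it was -2.5 for AT4G14090, -2.0 for UF3GT and -1.7 for AT5MAT, whose empty vector day 1 level of 3.8 makes its part a lower bound. The value was positive for COR27 (1.2) and PDF1.2b (1.8), which stood lower on day 12 in the empty vector and higher in 35S:PAP1.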

How the results depend on the processing

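For day 12 minus day 1 the 637 calls became 416 without line as a block, 361 with a limit of 1 log2 unit on the change, 633 with each array centred on its median, 670 after a second quantile normalization, 669 with an intensity trend and 492 with probe sets averaging at least 5. They became 0 with the bright days alone (4612 with an unadjusted p under 0.05, 2 residual degrees of freedom). With days 1 and 12 alone they also became 0 (3298, 1 residual degree of freedom). Leaving out 35S:PAP1 on days 2 and 7 is the same fit as the bright days alone, because each array left on those days is matched exactly by its own day term. Leaving out 1 array gave 4 to 383. For day 12 minus day 8 the 4586 calls became 4423 without line as a block, 3263 with the bright days alone, 2113 with the fold limit, and 1429 to 4723 with 1 array left out. With median centring 45.7% of these calls were higher, against 53.2% as deposited, and the median of all probe sets was -0.10 against -0.05.

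Of 74 called genes named, 70 kept the call with median centring, 72 with quantile normalization, 73 with the trend, 60 of 62 tested with the dim filter, and 51 without line as a block. The fits with 0 calls kept none. Leaving out 1 array lost more of the calls for days 1 and 12 than for the other days. None of the 74 changed direction in any of these settings, but this is no support for the calls. Each had moved the same way in both lines. Dropping the block or leaving out arrays of other days alters only the error and not the change itself. Of 43 uncalled genes named, COR15A, APL3 and EXPA8 were called with median centring (adjusted p = 0.0495, 0.0467 and 0.0455), COR15A and EXPA8 with the dim filter (0.0482 and 0.0456), APL3 and EXPA8 with the trend (0.0495 and 0.0441), and AT5G26570 with quantile normalization (0.042).

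With 1 array left out 19 uncalled genes changed sign. Their changes spanned -0.46 to 2.16 for AT1G15010, -0.23 to 1.83 for AT2G27080, -0.41 to 1.41 for AT3G62260, -0.31 to 1.61 for AT4G14090, -0.25 to 1.85 for AT4G27654, -0.11 to 1.81 for AT4G29780, -0.53 to 0.83 for AT5MAT, -1.04 to 0.0375 for CHIL, -0.51 to 0.71 for COR27, and -0.31 to 2.01 for DFR. They spanned -1.06 to 1.76 for EXO, -0.0125 to 0.31 for GR, -0.28 to 0.18 for LHCB4.2, -0.55 to 0.15 for LHCB4.3, -0.19 to 1.49 for PDF1.2, -0.26 to 1.06 for PDF1.2b, -0.33 to 0.93 for UF3GT, -0.64 to 0.0375 for UGT78D2, and -0.19 to 1.99 for WRKY22. These sign changes arose only in fits that left out an array of day 1 or day 12. Any further cause was not tested.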
